A study of Mus musculus with 2 samples.

Results

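The 9 genes described are *Apoe*, the sterol efflux transporters *Abca1* and *Abcg1*, the liver X receptors *Nr1h2* and *Nr1h3*, the lysosomal sterol exporters *Npc1* and *Npc2*, and *Srebf1* and *Srebf2*, which encode the sterol regulatory element binding proteins. They were chosen by name, with earlier results of these data known. They are 9 of the 13326 genes that had enough counts for a test, and none of them was used to sort cells into groups. Shares of them that were called are set beside those of all genes as a description. The cells were live retinoid-containing cells of the mouse lung, which a sorter selected by the fluorescence of their own retinoids under ultraviolet light (UV-positive cells). All mice were wild type, of strain C57BL/6, 3 months of age and, by the study's methods, male, and no animal was treated. By the methods, the 2 single-cell libraries, here library 1 and library 2, come from runs on different occasions. How many mice entered a library is not given in the sources used here, and every p-value rests on these 2 libraries. The library was a term of the fit, so a p-value reflects how far differences between groups vary from library to library. That spread is pooled over all groups of the fit and may be technical.

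Library 1 held 48762735 unique molecular identifiers (UMIs, each counting 1 captured transcript) in 9669 cell barcodes, and library 2 held 93970185 in 10050. After barcodes with fewer than 200 detected genes or over 10% mitochondrial UMIs were left out, 9634 and 9988 cells remained, with a median of 4480 and 7577.5 UMIs. The libraries shared 23 barcodes. A cell entered a group when it held at least 3 UMIs of the markers of exactly 1 class, which were *Col1a2*, *Mfap4* and *Pdgfra* for stromal cells, *Cdh5*, *Pecam1* and *Egfl7* for endothelial cells, *Epcam*, *Cdh1* and *Lamp3* for epithelial cells, and *Ptprc*, *Laptm5* and *Cd52* for immune cells. Stromal cells without a *Dcn* UMI were called alveolar fibroblasts and those with at least 3 were called adventitial fibroblasts. This gave 5805 and 5545 alveolar, 1017 and 998 adventitial, 56 and 360 endothelial, 930 and 101 epithelial, and 266 and 334 immune cells in libraries 1 and 2. Stromal cells with 1 or 2 *Dcn* UMIs (823 and 895) were not tested. Cells of several classes (420 and 1640), which may hold doublets although the sort gated on single cells, and cells of no class (317 and 115) were left out of every comparison, and no doublet caller was run. Of the cells of several classes, 86 and 931 met the stromal and endothelial rules alone. They outnumber the 56 and 360 endothelial cells that were kept, and the endothelial results rest on the kept cells only.

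The groups were checked with markers that had not been used to form them. The summed level of *Col1a1*, *Col3a1*, *Tcf21* and *Npnt* was 4609.8 and 4776 CPM (UMIs scaled to a total of 1000000 in the group and library) in alveolar and 4204 and 5526 CPM in adventitial fibroblasts, against at most 194.8 CPM in the other groups. Endothelial cells held 6375 and 5182 CPM of *Cldn5*, *Kdr*, *Tie1* and *Emcn*, epithelial cells 8865 and 10381 CPM of *Cldn18*, *Krt8*, *Krt18* and *Sftpb*, and immune cells 7887 and 4096 CPM of *Coro1a*, *Tyrobp*, *Fcer1g* and *Cd53*. Outside their own group these 3 lists reached at most 87.7 CPM. The adventitial list (*Pi16*, *Clec3b*, *Col14a1* and *Ly6a*) summed to 2842 and 1014 CPM in adventitial fibroblasts and to 1566 and 458.8 CPM in alveolar fibroblasts, where *Clec3b* alone gave 1529 and 419.2 CPM. It was highest in endothelial cells, at 3714 and 3436 CPM, of which *Ly6a* gave 3622 and 3419.8 CPM, so it does not mark adventitial fibroblasts alone. The split of the fibroblasts by *Dcn* also follows depth, with a median of 3958 and 6545 UMIs per alveolar and 6034 and 10655.5 per adventitial cell. In the tested groups, smooth muscle and pericyte markers (*Acta2*, *Myh11*, *Cspg4* and *Rgs5*) summed to at most 110.9 CPM and mesothelial markers (*Msln*, *Upk3b*, *Wt1* and *Lrrn4*) to at most 7.58 CPM. Platelet and red cell markers (*Ppbp*, *Pf4*, *Hba-a1* and *Hbb-bs*) reached 475.5 and 137.3 CPM in immune cells. Of this *Pf4* alone gave 469.8 and 129.1 CPM, and *Ppbp* had no UMI there in library 1, so the sum does not mark platelets by itself. The list reached 74.7 and 245.2 CPM in alveolar fibroblasts, mostly from *Hbb-bs*, against 3.32 and 5.699 CPM in adventitial fibroblasts.

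Cells obtain sterol by making it in the endoplasmic reticulum or by taking up lipoproteins, whose cholesterol leaves the lysosome through the soluble protein encoded by *Npc2* and the membrane protein encoded by *Npc1*. Low sterol activates the transcription factors encoded by *Srebf1* and *Srebf2*, whereas oxidised sterols activate the liver X receptors, which raise transcription of the efflux transporters and of *Apoe*. In the lung, alveolar type 2 cells make surfactant lipid and macrophages clear it.

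Levels are CPM from the UMIs of all cells of a group and library taken as a sum. Differences were tested on these 10 sums with the quasi-likelihood test of edgeR, with the library as a term, and p-values were adjusted by the Benjamini-Hochberg method over the 13326 genes tested. A difference with an adjusted p under 0.05 is said to be called. All 9 genes passed the filter on low counts, *Abcg1* through its endothelial and immune sums alone. Fitted log2 differences include scaling factors between 0.697 (epithelial, library 1) and 1.40 (endothelial, library 1), so they differ from ratios of the CPM values. Without these factors, the median over all genes moved by -0.56 in epithelial and by -0.27 in immune over alveolar cells, and by 0.17 in endothelial over alveolar cells.

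**Figure D1:**
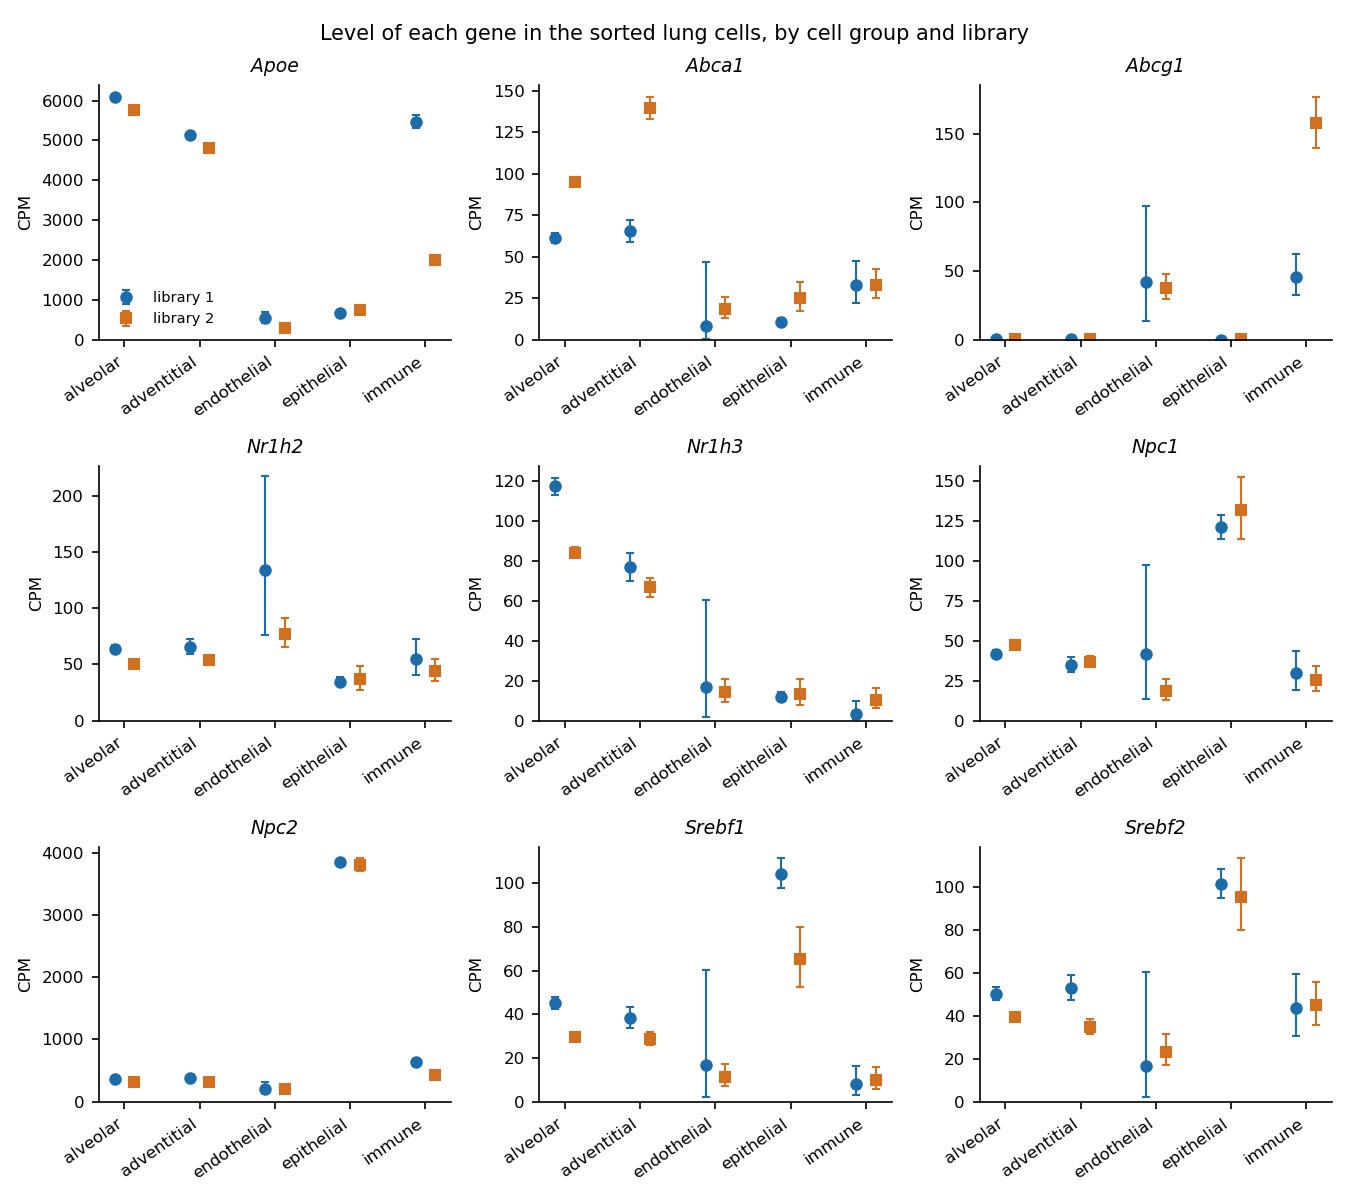
Level of each of the 9 genes (CPM, linear axis from 0) in alveolar, adventitial, endothelial, epithelial and immune cells, with circles for library 1, squares for library 2 and bars for 95% Poisson intervals of the counts. *Apoe* is high in both fibroblast groups (4814 to 6080.2 CPM), *Npc2* in epithelial cells (3810.5 and 3854 CPM), and *Abcg1* in immune and endothelial cells alone (37.9 to 157.7 CPM, against at most 0.732 CPM elsewhere).

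*Apoe* (ENSMUSG00000002985, GRCm38 chr7:19696109-19699188, minus strand) encodes apolipoprotein E, a secreted lipid carrier that binds lipoprotein receptors. Its level was 6080.2 and 5767 CPM in alveolar fibroblasts of libraries 1 and 2 and 5133 and 4814 CPM in adventitial fibroblasts. Immune cells held 5474 and 1994 CPM, epithelial cells 666 and 744 CPM, and endothelial cells 544 and 299.8 CPM. The fibroblast values were close to each other in both libraries and far above the epithelial and endothelial ones, whereas the immune value of library 1 lay between the alveolar and adventitial values and that of library 2 lay below both.

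*Apoe* was 18.2-fold lower in endothelial than in alveolar cells (log2 difference -4.18, SE 0.34, edgeR adjusted p = 1.38e-08) and 5.73-fold lower in epithelial than in alveolar cells (-2.52, SE 0.30, edgeR adjusted p = 1.37e-06), in both libraries. Epithelial cells held more of it than endothelial cells (log2 difference 1.66, SE 0.31, edgeR adjusted p = 0.000319). By CPM the gap was smaller in library 1 (666 against 544) than in library 2 (744 against 299.8). Without scaling factors the median over all genes moved by -0.73 in this comparison. In the order alveolar, adventitial, immune, epithelial and endothelial, the 3 highest groups were not told apart. Adventitial fibroblasts differed from alveolar fibroblasts by -0.23 (SE 0.28) on the log2 scale and immune cells from alveolar fibroblasts by -0.48 (SE 0.29, edgeR adjusted p = 0.181). The immune difference was called without scaling factors (-0.76) and without a filter on low counts (-0.57).

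Nearly every fibroblast held an *Apoe* UMI, with shares of 99.8% and 99.9% of alveolar cells and a median of 21 and 35 UMIs per cell. The share was 85.7% and 88.1% in epithelial cells, or 59.2% and 64.4% after each cell was thinned to 2000 UMIs, and 32.1% and 37.2% in endothelial cells, or 30.8% and 25.3% in the 26 and 312 of them that were deep enough to thin. As a measure of free RNA, 12.2% of 49 T cells of library 2 held an *Apoe* UMI (median 4593 UMIs per cell, 4.08% after thinning) and so did 54.8% of 62 B cells of library 2 (median 2627.5, 43.6% after thinning of 55 of them). In library 1 it was 22.2% of 27 B cells (Clopper-Pearson interval 8.62% to 42.3%, median 1953, 27.3% after thinning of 11 of them). Which of these measures free RNA was not tested. The endothelial share (median 1899.5 and 4028.5 UMIs) lay inside the B cell interval in library 1 and between the T and B cell shares in library 2, and it is not read as expression. Epithelial cells held a median of 4 and 7 *Apoe* UMIs per cell and endothelial cells 0 in both libraries. The epithelial level of 666 and 744 CPM compares with 120.0 and 789.3 CPM in B cells of the same libraries and 30.7 CPM in T cells of library 2, and the part of free RNA in it was not tested. Endothelial cells without any UMI of the stromal class markers held 244.8 and 198.4 CPM of *Apoe* (48 and 268 cells), and those with 1 or 2 such UMIs held 2297 and 509.2 CPM (8 and 92 cells). In epithelial cells the same split gave 663.8 and 725.0 CPM without and 676.9 and 798.6 CPM with stromal marker UMIs, with overlapping intervals in both libraries.

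*Abca1* (ENSMUSG00000015243, chr4:53030787-53159895, minus strand) encodes a membrane transporter that passes cholesterol and phospholipid to lipid-poor apolipoproteins, and it is a known target of the liver X receptors. The RefSeq promoter table (GRCm38.p6) held 12 promoters of 7 of the 9 genes, without *Abcg1* and *Npc1*, and the 250 bases before each start were searched on both strands for 3 motifs. A direct repeat with 4 spacer bases, the arrangement that liver X receptors are known to bind, was written as GGTNA, any 5 bases, GGTNA. It occurred before *Abca1* and *Srebf1*, both textbook liver X receptor targets, and in 204 of 32851 promoters (0.621%). The stretches that hold it are shown because these 2 genes alone had it, with the match in capitals on the opposite strand of the gene. It lies 67 to 53 bases before the start of *Abca1* (chr4:53159915-53159994, minus strand) and 182 to 168 bases before the innermost of 3 listed starts of *Srebf1*, which lies inside the gene (chr11:60210606-60210685, minus strand), and the 2 outer starts had no match. A match is a description of these letters and not a site.
Abca1 promoter: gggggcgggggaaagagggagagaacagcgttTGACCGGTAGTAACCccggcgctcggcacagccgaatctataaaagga
Srebf1 promoter: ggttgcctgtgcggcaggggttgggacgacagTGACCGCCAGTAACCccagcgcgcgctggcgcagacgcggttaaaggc

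An E-box, CACGTG, was found in 1 of the 12 promoters, 147 to 142 bases before the start of *Abca1* (chr4:53160004-53160074, minus strand), and in 1978 of all 32851 promoters (6.02%). The sterol regulatory element, written as TCACNCCAC, was in none of the 12 and in 346 of all (1.05%).
Abca1 promoter, E-box: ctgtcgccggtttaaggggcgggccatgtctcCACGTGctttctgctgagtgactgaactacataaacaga

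The level of *Abca1* was 61.3 and 94.8 CPM in alveolar and 65.3 and 139.5 CPM in adventitial fibroblasts, and 33.1 CPM in immune cells of either library. Epithelial cells held 10.4 and 24.9 CPM and endothelial cells 8.37 CPM (1 UMI, 95% Poisson interval 0.212 to 46.6) and 18.4 CPM. Both fibroblast groups lay above the other 3 groups in both libraries and overlapped each other. *Abca1* was lower than in alveolar fibroblasts in endothelial (log2 difference -2.62, SE 0.33, edgeR adjusted p = 5.33e-06), epithelial (-1.74, SE 0.25, edgeR adjusted p = 9.61e-06) and immune cells (-1.02, SE 0.26, edgeR adjusted p = 0.00302). The immune call was lost with DESeq2 (-0.81) and without the library term (-0.96). Of the order adventitial, alveolar, immune, epithelial and endothelial, only the alveolar and immune neighbours were called different. Epithelial over endothelial cells (0.88) were called after thinning (1.56) and without immune cells that held C1q macrophage markers (0.996), and immune cells exceeded epithelial cells by 0.72 (SE 0.30, edgeR adjusted p = 0.0572). That difference was called without scaling factors (1.003), with at least 5 marker UMIs (0.80) and without the epithelial sum of library 2 (0.91), and it turned sign after thinning (-0.047) and without immune cells that held C1q macrophage markers (-0.12).

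*Abcg1* (ENSMUSG00000024030, chr17:31057675-31117988, plus strand), whose product exports cholesterol to high-density lipoprotein, was nearly absent from fibroblasts. Alveolar cells held 0.171 and 0.438 CPM (4 and 17 UMIs) and adventitial cells 0.316 CPM (2 UMIs, interval 0.0383 to 1.14) and 0.345 CPM (4 UMIs). The 930 epithelial cells of library 1 held no UMI, which allows up to 0.347 CPM, and the 101 of library 2 held 1 (0.732 CPM, interval 0.0185 to 4.08). Immune cells held 45.6 and 157.7 CPM (40 and 286 UMIs) and endothelial cells 41.8 CPM (5 UMIs, interval 13.6 to 97.6) and 37.9 CPM (70 UMIs). The immune and endothelial values overlapped neither the fibroblast nor the epithelial values in either library.

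On the log2 scale, *Abcg1* in immune cells exceeded alveolar fibroblasts by 8.56 (SE 0.37) and in endothelial cells by 6.33 (SE 0.43), in both libraries. Because the gene passed the filter on low counts only through these 2 groups, it had to differ, and no p is given for these differences. In the fit without that filter they were 8.455 and 6.27. Immune cells were called higher than endothelial cells (log2 difference 2.22, SE 0.33, edgeR adjusted p = 3.68e-05), although in library 1 the intervals of 32.6 to 62.1 and 13.6 to 97.6 CPM overlapped. Without the 1 and 10 immune cells that held alveolar macrophage markers this difference was 0.29 and not called. The adventitial, epithelial and alveolar levels that follow in the order were not told apart at this depth. The pooled epithelial level was 0.296 of the alveolar level, with a counting interval from 0.00715 to 1.84. A UMI of *Abcg1* was seen in 7.14% and 15.6% of endothelial cells and in 10.9% and 15.9% of immune cells (median 3024 and 4552 UMIs), or in 3.85%, 6.41%, 8.11% and 8.39% after thinning. In alveolar fibroblasts, at similar or greater depth (median 3958 and 6545 UMIs), the share was 0.0689% and 0.307%.

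*Nr1h2* (ENSMUSG00000060601, chr7:44549616-44553951, minus strand) encodes liver X receptor beta, which most tissues express. Its level was 63.5 and 50.2 CPM in alveolar, 65.7 and 54.2 CPM in adventitial, 54.7 and 44.1 CPM in immune and 34.2 and 36.6 CPM in epithelial cells. Endothelial cells held 133.9 CPM (16 UMIs) and 77.4 CPM, above every other group in both libraries. No neighbours in the order endothelial, adventitial, alveolar, immune and epithelial were called different, and the difference of endothelial from alveolar cells was 0.51 (SE 0.22, edgeR adjusted p = 0.0861) on the log2 scale. Only the ends of the order were called, with epithelial below endothelial cells by -0.67 (SE 0.24, edgeR adjusted p = 0.031), and that call was lost without the library term, without the low-count filter, after thinning, and without the endothelial sum of library 1 (-0.61). Without scaling factors, 5 further *Nr1h2* differences were called, among them endothelial over alveolar (0.71) and epithelial over alveolar cells (-0.73).

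*Nr1h3* (ENSMUSG00000002108, chr2:91184061-91202834, minus strand) encodes liver X receptor alpha, which is known from liver, fat and macrophages. Alveolar fibroblasts held 117.2 and 84.1 CPM and adventitial fibroblasts 76.8 and 66.7 CPM. The other groups lay well below, with 16.7 CPM (2 UMIs, interval 2.03 to 60.4) and 14.1 CPM in endothelial, 11.9 and 13.2 CPM in epithelial, and 3.42 CPM (3 UMIs, interval 0.705 to 10.0) and 10.5 CPM in immune cells. In both libraries the 2 fibroblast groups lay above the other 3 groups, which were not told apart from each other. Without immune cells that held alveolar macrophage markers, *Nr1h3* was called lower in immune than in epithelial cells (-1.27, against -0.83 with them). In library 2 the 10 cells with these markers held 7 of the 19 immune *Nr1h3* UMIs, at 59.5 CPM (interval 23.9 to 122.5). The 1 such cell of library 1 held none, and cells with C1q macrophage markers held 0 and 2 UMIs in libraries 1 and 2. The low immune level is thus that of the group and not of each cell type in it.

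Against alveolar fibroblasts, the log2 difference of *Nr1h3* was -3.34 in immune (SE 0.32, edgeR adjusted p = 8.19e-08), -2.89 in endothelial (SE 0.34, edgeR adjusted p = 1.69e-06) and -2.50 in epithelial cells (SE 0.25, edgeR adjusted p = 1.64e-07). The difference of adventitial from alveolar fibroblasts was -0.45 (SE 0.20, edgeR adjusted p = 0.237), with both adventitial values below both alveolar values. Alveolar fibroblasts showed an *Nr1h3* UMI in 36.1% and 41.9% of cells, or 21.2% and 15.6% after thinning, against 0.752% and 3.89% of immune cells, or 1.08% and 1.61% after thinning. Across bins of *Dcn*, *Nr1h3* went from 117.2 CPM in cells without a *Dcn* UMI to 67.4 CPM in the 199 cells with 30 or more in library 1, and from 84.1 to 66.4 CPM (255 cells) in library 2. *Apoe* went from 6080.2 to 4499 CPM and from 5767 to 4708 CPM across the same bins, whereas *Abca1* went from 61.3 to 65.3 CPM and from 94.8 to 145.4 CPM. The bins also differ in depth, with medians of 3958 and 7051 UMIs in library 1 and 6545 and 11132 in library 2, and its part in these values was not tested.

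*Npc1* (ENSMUSG00000024413, chr18:12189692-12236400, minus strand) encodes the lysosomal membrane protein that passes cholesterol on to other membranes. Epithelial cells held 121.0 and 131.8 CPM, alveolar fibroblasts 41.6 and 47.5 CPM, adventitial fibroblasts 34.9 and 36.8 CPM and immune cells 29.6 and 25.4 CPM. In endothelial cells it was 41.8 CPM (5 UMIs, interval 13.6 to 97.6) in library 1 and 18.4 CPM in library 2. The epithelial values stood clear of all others, while the endothelial values of the libraries lay on either side of the immune values.

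*Npc1* was 4.13-fold higher in epithelial cells than in alveolar fibroblasts (log2 difference 2.05, SE 0.19, edgeR adjusted p = 6.36e-08), in both libraries. Endothelial cells were called lower than alveolar fibroblasts (-1.29, SE 0.29, edgeR adjusted p = 0.00189) and adventitial fibroblasts (-1.004, SE 0.30, edgeR adjusted p = 0.0135), although the libraries overlapped. The call against adventitial fibroblasts was lost without the library term (-0.93) and without cells that held another class's markers (-0.77). In library 1 alone the log2 ratios of CPM were 0.0076 and 0.26. Endothelial and immune cells, the last neighbours in the order of mean levels, differed by 0.84 for immune over endothelial (SE 0.33, edgeR adjusted p = 0.0585), which runs against that order. This difference was called in 4 of the 12 alternative fits, among them the fit without the endothelial sum of library 1 (0.98). *Npc1* overlaps *Rmc1* and *Gm15956* on the opposite strand, and whether strand was used in counting is not given in the sources used here.

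*Npc2* (ENSMUSG00000021242, chr12:84754562-84773152, minus strand) encodes the soluble lysosomal protein that binds cholesterol and hands it to the product of *Npc1*. Its level was 3854 and 3810.5 CPM in epithelial cells, 630.6 and 421.4 CPM in immune cells, 375.6 and 316.6 CPM in adventitial and 362.7 and 309.8 CPM in alveolar fibroblasts, and 209.1 and 204.5 CPM in endothelial cells. The order was the same in both libraries. Epithelial cells exceeded alveolar fibroblasts 16.7-fold (log2 difference 4.06, SE 0.24, edgeR adjusted p = 8.05e-11) and endothelial cells 31.0-fold (4.95, edgeR adjusted p = 9.13e-11). Both folds include the scaling factors and exceed the ratios of CPM. Without the factors the median over all genes moved by -0.56 and -0.73 on the log2 scale in these comparisons. Immune cells also exceeded alveolar fibroblasts (log2 difference 0.91, SE 0.21, edgeR adjusted p = 0.00155), and endothelial cells lay below them (-0.89, SE 0.23, edgeR adjusted p = 0.00558). The adventitial and alveolar levels were not told apart, and the endothelial call was lost without the library term (-0.97). An *Npc2* UMI was present in 100% of the 930 and 97.0% of the 101 epithelial cells, 99.6% and 95.05% after thinning, with a median of 34 and 48 UMIs per cell. By marker genes, 845 and 81 of the epithelial cells were alveolar type 2 cells, where *Npc2* was at 3889 and 4025 CPM.

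*Srebf1* (ENSMUSG00000020538, chr11:60199089-60222581, minus strand), whose promoter stretch is printed beside that of *Abca1*, encodes a regulator of fatty acid synthesis genes. Epithelial cells held 104.4 and 65.2 CPM, alveolar fibroblasts 45.3 and 29.6 CPM and adventitial fibroblasts 38.2 and 28.8 CPM. Endothelial cells held 16.7 CPM (2 UMIs, interval 2.03 to 60.4) and 11.4 CPM, and immune cells 7.98 CPM (7 UMIs) and 9.93 CPM. Library 1 was higher than library 2 in each group but the immune cells, and the epithelial values lay above all others in both libraries. Epithelial cells exceeded alveolar fibroblasts 3.35-fold (log2 difference 1.74, SE 0.19, edgeR adjusted p = 4.76e-07). Immune (-1.65, SE 0.29, edgeR adjusted p = 0.000115) and endothelial cells (-1.59, SE 0.32, edgeR adjusted p = 0.000676) lay below the alveolar fibroblasts and were not told apart from each other.

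*Srebf2* (ENSMUSG00000022463, chr15:82147181-82205379, plus strand) encodes the main regulator of sterol synthesis genes. Its level was 101.1 and 95.2 CPM in epithelial cells, 50.2 and 39.3 CPM in alveolar fibroblasts, 52.9 and 34.6 CPM in adventitial fibroblasts, 43.3 and 44.7 CPM in immune cells, and 16.7 CPM (2 UMIs, interval 2.03 to 60.4) and 23.3 CPM in endothelial cells. Epithelial cells were highest and endothelial cells lowest in both libraries, and the 3 groups between them overlapped. The log2 difference from alveolar fibroblasts was 1.68 in epithelial (SE 0.20, edgeR adjusted p = 1.35e-06) and -1.03 in endothelial cells (SE 0.29, edgeR adjusted p = 0.01), the latter no longer called after thinning (-0.78), and neither was the difference of endothelial from adventitial cells (-0.71). In immune cells it was 0.29 (SE 0.23, edgeR adjusted p = 0.303). *Srebf2* was thus above the fibroblasts in the same cells as *Srebf1*, *Npc1* and *Npc2*, and each of the 4 differences was called in all 12 alternative fits. *Srebf1* and *Srebf2* overlap microRNA genes, *Srebf1* also overlaps *Rai1* and *Srebf2* also *Gm49502*, and *Nr1h3* overlaps *Gm13783* and *Gm23390* and *Abcg1* overlaps *Gm25447*, so counts shared with these cannot be told apart.

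**Figure D2:**
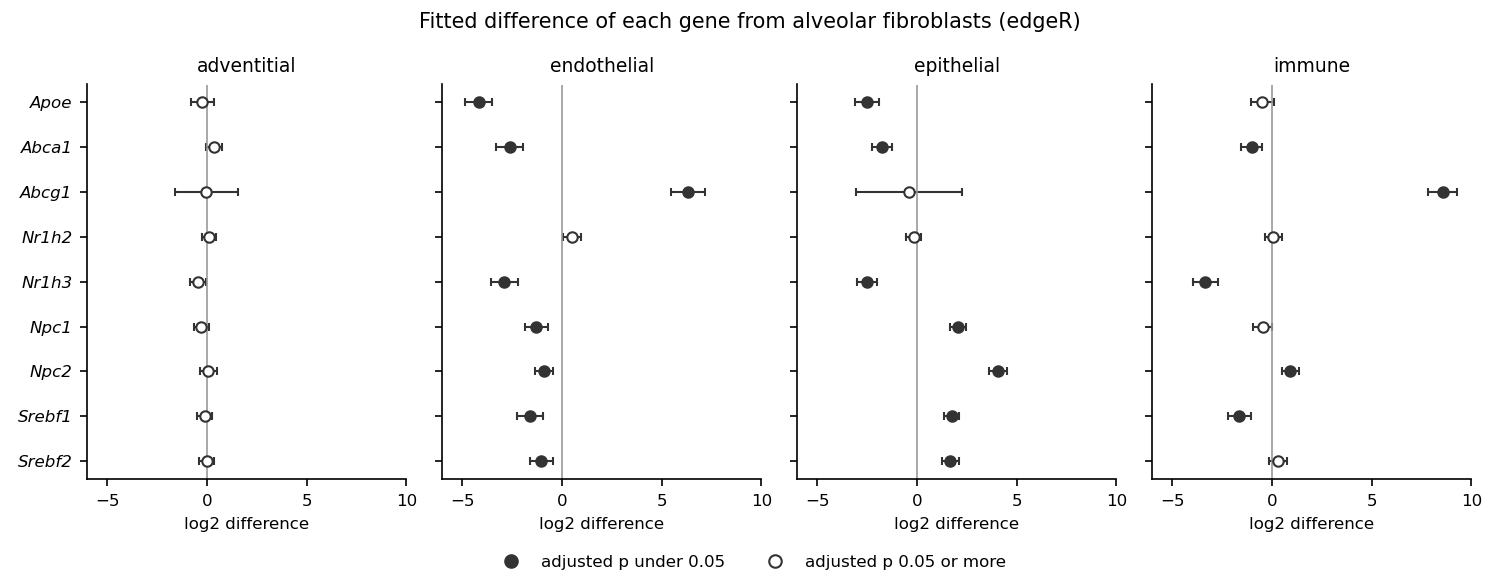
Fitted log2 difference of each gene from alveolar fibroblasts in adventitial, endothelial, epithelial and immune cells (points, with bars of 2 SE to each side, and filled points for an edgeR adjusted p under 0.05, from 2 libraries). No gene is called in adventitial fibroblasts, whereas *Npc2* stands at 4.06 in epithelial cells. *Abcg1* stands at 6.33 and 8.56 in endothelial and immune cells. It passed the filter on low counts only through these groups and had to differ there, so its filled points in them are no result.

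Between adventitial and alveolar fibroblasts, edgeR called 0 of the 9 genes, where it called 8.71% of all genes tested. *Nr1h3* was the 1 gene with an unadjusted p under 0.05, and DESeq2 also called 0. The median log2 difference was -0.03 over the 9 genes and -0.03 over all genes.

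Endothelial cells differed from alveolar fibroblasts in 8 of the 9 genes (33% of all genes), with 7 lower and *Abcg1* higher, and from adventitial fibroblasts in the same 8 genes (33.2% of all genes). *Nr1h2* was the gene not called. *Abcg1* had to differ in each comparison of endothelial or immune cells with the other 3 groups, so its call in these counts is no result of the count. The median log2 difference from alveolar fibroblasts was -1.29 over the 9 genes and -0.18 over all genes. Library 1 gave this group only 119534 UMIs, and without that sum the fit called the same 8 genes.

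Epithelial cells differed from alveolar fibroblasts in 7 of the 9 genes (51.1% of all genes). *Npc1*, *Npc2*, *Srebf1* and *Srebf2* were higher and *Apoe*, *Abca1* and *Nr1h3* lower. Against adventitial fibroblasts the same 7 genes were called (48.2% of all genes). The median log2 difference from alveolar fibroblasts was -0.17 over the 9 genes and -0.11 over all genes. From endothelial cells the epithelial cells differed in 7 genes (40.4% of all genes), of which *Abcg1* and *Nr1h2* were lower and *Apoe*, *Npc1*, *Npc2*, *Srebf1* and *Srebf2* higher.

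Immune cells differed from alveolar fibroblasts in 5 of the 9 genes (52.5% of all genes), a share close to that of all genes. *Abcg1* and *Npc2* were higher and *Abca1*, *Nr1h3* and *Srebf1* lower. The same 5 were called against adventitial fibroblasts (50.8% of all genes), where the call of *Npc2* was lost without the library term (0.86). Against endothelial cells 5 genes were higher, *Apoe*, *Abca1*, *Abcg1*, *Npc2* and *Srebf2* (36.1% of all genes). Against epithelial cells *Apoe* and *Abcg1* were higher and *Npc1*, *Npc2*, *Srebf1* and *Srebf2* lower, which makes 6 of 9 (48% of all genes).

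The immune group was heterogeneous in these genes. The tenth of its cells with the most *Apoe* UMIs held 78.4% and 86.4% of the group's *Apoe* UMIs in libraries 1 and 2, against 25.4% and 24.3% in alveolar fibroblasts. Cells with at least 3 UMIs of the macrophage markers *C1qa*, *C1qb* and *C1qc* were 45 of 266 immune cells in library 1 and 25 of 334 in library 2. They held 77.8% and 71.5% of the immune *Apoe* UMIs and stood at 20718 and 15874.5 CPM. The remaining immune cells held 1529 and 624.8 CPM.

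Without the C1q marker cells, an alternative chosen after the values were seen, *Apoe* in immune cells was called lower than in alveolar fibroblasts (log2 difference -2.29) and the call against epithelial cells was lost (0.23). *Abca1* followed these cells in library 1, where they held 24 of its 29 immune UMIs, and less in library 2, where they held 12 of 60. It stood at 133.1 and 73.7 CPM in them and at 7.18 and 29.1 CPM in the remaining immune cells. The call of *Abca1* in immune over endothelial cells was lost without them (0.88), and it was also lost without the library term (1.46).

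*Abcg1* was concentrated in other cells. Those with at least 3 UMIs of the alveolar macrophage markers *Ear1*, *Krt79* and *Marco*, singled out after the values were seen, were 1 cell in library 1 and 10 in library 2. They held 11 of 40 immune *Abcg1* UMIs in library 1 and 234 of 286 in library 2, where their level was 1988 CPM (interval 1741 to 2259). They held 1 *Apoe* UMI in each library. Without them immune *Abcg1* was at 33.2 and 30.7 CPM rather than 45.6 and 157.7 CPM, and the log2 difference from endothelial cells went from 2.22 to 0.29 and was no longer called. The log2 difference from alveolar fibroblasts was then 6.85. They also held 27 of the 60 immune *Abca1* UMIs of library 2, at 229.4 CPM (interval 151.1 to 333.7), and 1 UMI in library 1. Without them *Abca1* in immune over endothelial cells was not called (1.19).

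**Figure D3:**
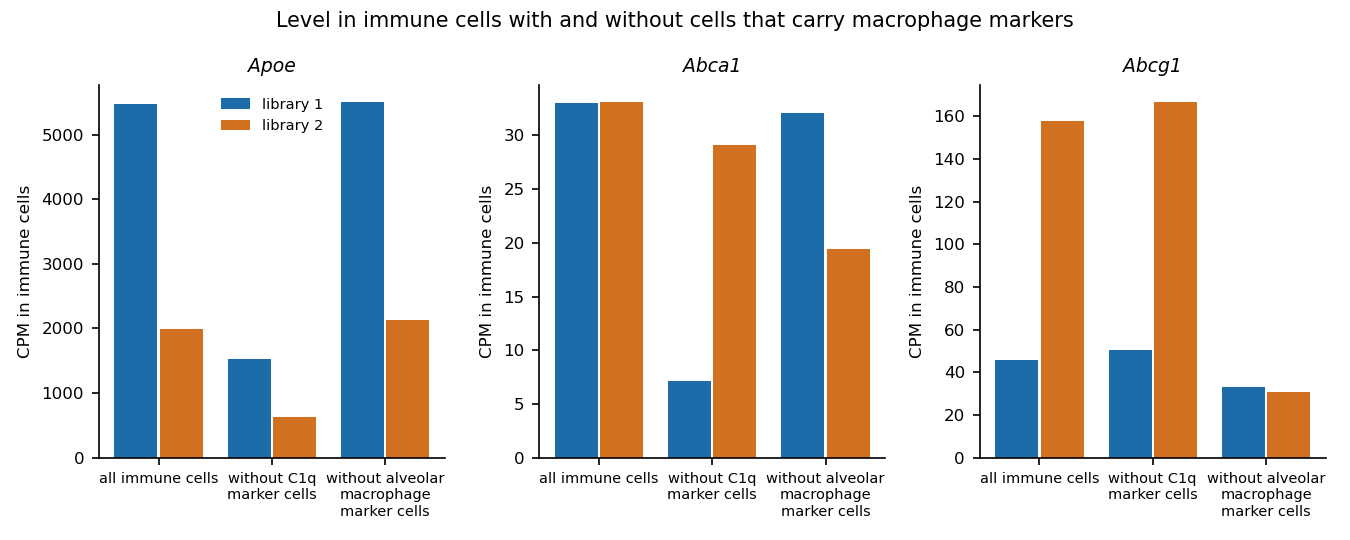
Level of *Apoe*, *Abca1* and *Abcg1* (CPM, bars from 0, libraries 1 and 2) in all immune cells, without cells holding C1q markers, and without cells holding alveolar macrophage markers. *Apoe* drops from 5474 and 1994 to 1529 and 624.8 CPM without the C1q marker cells, and *Abcg1* drops from 157.7 to 30.7 CPM in library 2 without the alveolar macrophage marker cells.

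Immune subsets with at least 20 cells in a library, assigned by marker lists with no test, showed the same spread. *Apoe* stood at 23741 and 16783 CPM in C1q macrophages (41 and 24 cells), 2877 and 2052 CPM in monocytes, 246.3 and 441.3 CPM in neutrophils and 120.0 and 789.3 CPM in B cells. In library 2 it was at 30.7 CPM in T cells and 31.7 CPM in dendritic cells. *Abcg1* stood at 44.1 and 56.2 CPM in monocytes and at 25.4 and 72.1 CPM in C1q macrophages. *Npc2* was at 870.6 and 701.2 CPM in C1q macrophages and 1013 and 618.5 CPM in monocytes, against 155.6 and 212.5 CPM in neutrophils. Among endothelial cells of library 2, *Abcg1* was at 94.0 CPM (14 UMIs) in the 31 aerocytes and at 30.4 CPM in the 219 general capillary cells.

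**Figure D4:**
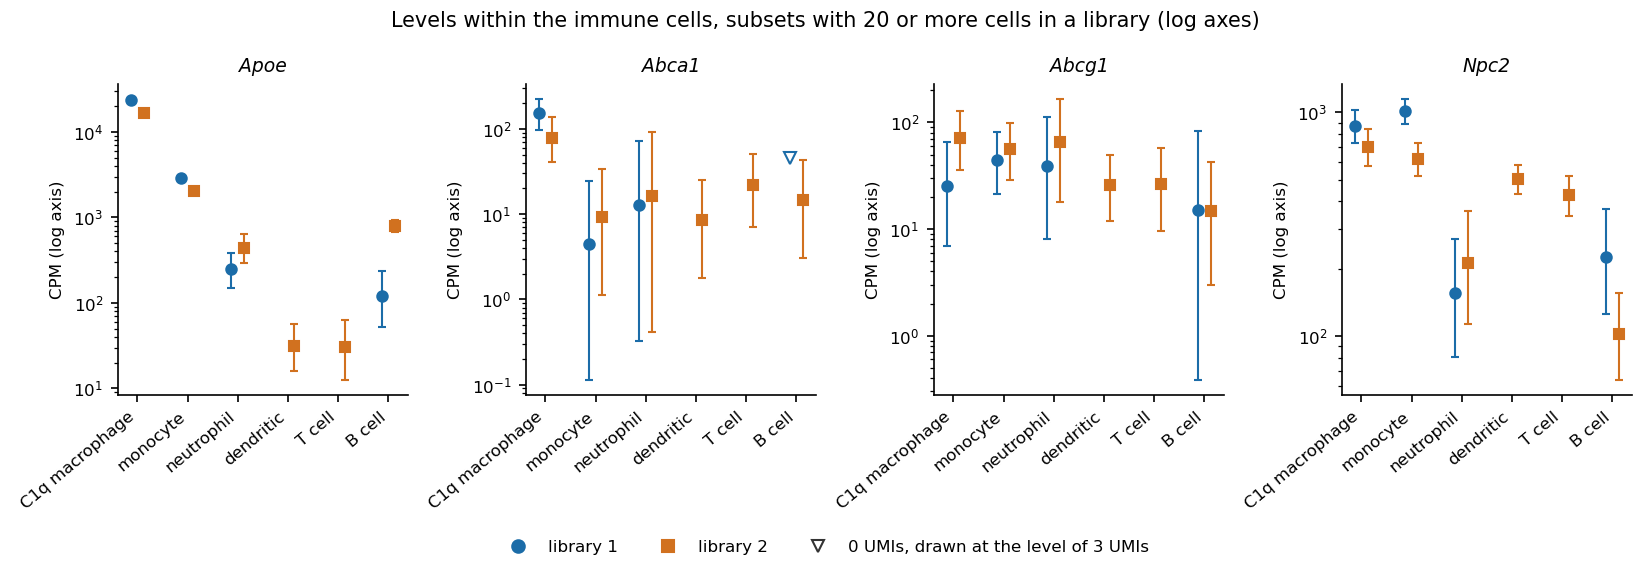
Level of *Apoe*, *Abca1*, *Abcg1* and *Npc2* (CPM, log axes) in immune subsets with at least 20 cells in a library, with circles for library 1, squares for library 2, bars for 95% Poisson intervals, and open triangles for no UMI, drawn at the level of 3 UMIs. *Apoe* is highest in C1q macrophages (23741 and 16783 CPM) and lowest in T and dendritic cells (30.7 and 31.7 CPM).

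The other genes of sterol handling were counted in lists against alveolar fibroblasts. These lists were also chosen with earlier results of these data known, so their counts are a description. Of 19 sterol synthesis genes, 16 were higher and 2 lower in epithelial cells, where 51.1% of all genes were called (3248 higher and 3565 lower), with a median log2 difference of 2.31 against -0.11 over all genes. The median lay between 1.76 and 2.503 in the alternative fits, with 15 or 16 genes higher and 0 to 2 lower in each. *Pmvk*, a kinase of the mevalonate pathway, was at 159.2 and 361.8 CPM in epithelial and 49.9 and 33.2 CPM in alveolar cells (log2 difference 3.20, SE 0.33, edgeR adjusted p = 2.18e-07). *Sqle*, the oxygenase that makes squalene epoxide, was at 53.1 and 41.7 against 10.3 and 6.60 CPM (3.03, SE 0.23, edgeR adjusted p = 3.45e-09). *Acat2*, which makes acetoacetyl-CoA, differed by 3.04 (SE 0.25, edgeR adjusted p = 9.84e-09). The 2 genes lower in epithelial cells, *Ebp* and *Sc5d*, were named after their values were seen.

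In endothelial cells none of the 19 sterol synthesis genes was higher and 4 were lower (median -0.89 against -0.18), where 33% of all genes were called. The lower genes included *Cyp51* (log2 difference -1.78, edgeR adjusted p = 0.0235), *Sc5d* (-1.74, edgeR adjusted p = 3.75e-05) and *Hsd17b7* (-1.13, edgeR adjusted p = 0.0433). Over the alternative fits 0 or 1 gene was higher and 1 to 5 were lower. The call of *Cyp51* was lost in 5 and that of *Hsd17b7* in 6 of the 12 alternative fits. In immune cells 1 gene was higher and 5 lower (1 to 4 and 4 to 6 over the alternative fits), where 52.5% of all genes were called. Whether the shares in endothelial and immune cells differ from those of all genes was not tested. The median of the list in immune cells, -0.03, ranged from -0.30 to 0.10 over the alternatives and so had no direction. *Hsd17b7* (-2.73, edgeR adjusted p = 0.000209) and *Sc5d* (-2.004, edgeR adjusted p = 1.85e-06) were among the lower ones. *Lss*, with 1 UMI in immune cells, was 15.4-fold lower by pooled CPM (counting interval 2.74 to 609.6). In adventitial fibroblasts edgeR called 0 of 19 (median -0.21), as did DESeq2, beside the 8.71% of all genes.

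**Figure D5:**
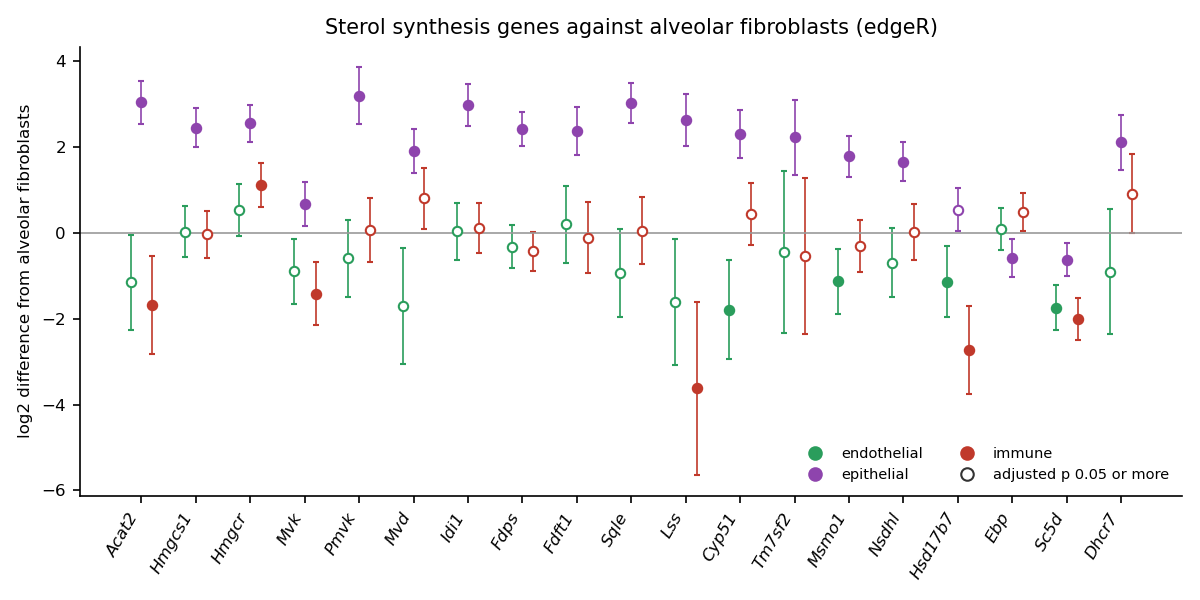
Fitted log2 difference of 19 sterol synthesis genes from alveolar fibroblasts in endothelial (green), epithelial (purple) and immune cells (red), with bars of 2 SE to each side and filled points for an edgeR adjusted p under 0.05, from 2 libraries. In epithelial cells 16 of the 19 genes are higher, with a median of 2.31 that is at least 1.76 under every scaling, and no direction is shared by the genes in immune cells.

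In epithelial cells 5 of 6 fatty acid synthesis genes were higher and 1 was lower, beside 51.1% of all genes called (median 3.54, and 2.99 to 3.796 in the alternative fits). The desaturase gene *Scd1* was at 3340.1 and 2783 CPM in epithelial and 12.6 and 12.2 CPM in alveolar cells (log2 difference 8.50, SE 0.36, edgeR adjusted p = 1.74e-12). *Fasn*, the fatty acid synthase gene, was at 681.1 and 536.8 against 27.1 and 22.2 CPM (5.17, SE 0.27, edgeR adjusted p = 1.69e-11). *Elovl6*, an elongase gene, had no UMI in epithelial cells and was at least 34.3-fold lower there, from 3 UMIs over the group. In endothelial cells 3 of the 6 were lower and none higher (33% of all genes called), *Fasn* (-2.18), *Elovl6* (-1.83) and *Scd2* (-1.62). In immune cells *Scd2* (-1.84) and *Fasn* (-1.02) were lower and *Scd1* (1.72) higher (52.5% of all genes called), and in adventitial fibroblasts *Scd1* alone was higher (2.09, with 8.71% of all genes called).

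Among 5 genes that control the sterol regulatory element binding proteins (*Scap*, *Insig1*, *Insig2*, *Mbtps1* and *Mbtps2*), epithelial cells had 2 higher, *Insig1* (1.77) and *Scap* (0.93), and 1 lower, *Mbtps1* (-0.52), beside 51.1% of all genes called. The call of *Mbtps1* was lost in 5 of the 12 alternative fits and that of *Scap* without scaling factors, where the median of 0.34 turned to -0.21. *Insig1* (-1.88) and *Mbtps1* (-0.88) were lower in endothelial cells (33% of all genes called), and *Mbtps1* (-1.12), *Insig1* (-1.08) and *Insig2* (-0.97) in immune cells (52.5%). In adventitial fibroblasts 0 of 5 were called by edgeR and by DESeq2 (8.71% of all genes by edgeR).

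Of 5 lipoprotein receptor genes and their regulators, *Lrp8* did not pass the filter. *Lrp1*, a receptor for apolipoprotein E, was at 707.8 and 746.5 CPM in alveolar fibroblasts and 2.20 and 2.93 CPM in epithelial cells (log2 difference -7.70, SE 0.31, edgeR adjusted p = 1.33e-12), and was also lower in endothelial (-4.94) and immune cells (-1.88). *Scarb1*, the receptor of high-density lipoprotein, was higher in endothelial (6.27), immune (4.86), epithelial (3.19) and adventitial cells (1.21). *Vldlr* was lower in endothelial (-4.56) and epithelial cells (-0.62) and had 2 UMIs in immune cells, 161.4-fold below alveolar fibroblasts by pooled CPM (counting interval 44.7 to 1333). *Mylip* was higher in adventitial fibroblasts (0.94). Of the 4 genes tested, 2 were higher and 2 lower in endothelial cells (33% of all genes called) and in immune cells (52.5%), and 1 and 2 in epithelial cells (51.1%). In adventitial fibroblasts 2 were higher and 0 lower (8.71%), with 0 to 2 higher over the alternative fits.

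Of the sterol storage and hydrolysis genes 3 of 4 were tested, without *Lcat*. *Lipa*, the lysosomal lipase gene, was at 122.3 and 151.0 CPM in alveolar and 0.231 and 2.20 CPM in epithelial cells (log2 difference -7.31, SE 0.43, edgeR adjusted p = 1e-10). In the same cells *Soat1*, which esterifies cholesterol, was higher (4.02, at 417.9 and 361.1 against 32.52 and 38.005 CPM), and so was *Nceh1*, a hydrolase gene (6.29). Endothelial cells were lower in *Soat1* (-3.14) and *Lipa* (-2.21) and higher in *Nceh1* (3.63), and immune cells were higher in *Nceh1* (5.45) and *Soat1* (1.66). All 3 were thus called in epithelial and endothelial cells and 2 in immune cells, beside 51.1%, 33% and 52.5% of all genes. In adventitial fibroblasts 0 of 3 were called by edgeR and by DESeq2, and 1 in 4 of the alternative fits (8.71% of all genes by edgeR).

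Of 10 genes of sterol transfer inside the cell, 5 were higher and 2 lower in epithelial cells (51.1% of all genes called), led by *Stard4* (2.65), *Gramd1c* (2.06) and *Gramd1b* (1.45). The split was not stable, with 2 to 5 higher and 1 to 5 lower over the alternative fits and a median of 0.35 that turned to -0.20 without scaling factors and to -0.14 after thinning. Endothelial cells had 1 higher and 3 lower (33% of all genes), with *Stard5* (-2.82), *Stard4* (1.60) and *Lamp2* (-1.47) named. In immune cells 3 were higher and 3 lower (52.5% of all genes), with *Lamp2* (-1.52), *Scarb2* (-1.26) and *Stard4* (1.22) named, and in adventitial fibroblasts *Stard5* (-1.11) was lower and *Scarb2* (0.69) higher (8.71% of all genes).

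Of 9 apolipoprotein and efflux genes, *Apoa1* and *Abcg4* did not pass the filter. *Apoc2*, a neighbour of *Apoe* on chromosome 7, was at 190.4 and 112.5 CPM in immune cells and had no UMI in alveolar fibroblasts, at least 2860.3-fold lower there. *Pltp*, the phospholipid transfer protein gene, was at 1431 and 1302 CPM in endothelial cells, 274.3 and 137.9 CPM in adventitial and 61.0 and 45.1 CPM in alveolar fibroblasts, and was higher in both (4.46 and 1.96) and lower in epithelial cells (-4.57). *Apod* had no UMI in endothelial, epithelial or immune cells, at least 8.33-fold, 42.4-fold and 11.4-fold lower than in alveolar fibroblasts, and was higher in adventitial fibroblasts (1.69). *Apoc1* was lower in endothelial cells (-3.93). *Apobec1* was higher in immune cells (3.61) and had 3 UMIs in epithelial cells, 18.5-fold below (6.28 to 90.2). Of the 7 genes tested, 2 were higher and 2 lower in endothelial (33% of all genes called), 3 and 3 in epithelial (51.1%) and 4 and 2 in immune cells (52.5%). *Apod* had no UMI in these groups and *Apoc2* none in alveolar fibroblasts, so each passed the filter on low counts through other groups alone. Their calls in these groups are therefore no result of the counts. In adventitial fibroblasts 2 were higher and 0 lower (8.71%), with 0 to 3 higher and 0 or 1 lower over the alternative fits.

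Of 5 oxysterol enzyme genes 4 were tested, without *Cyp46a1*, and none was higher and 3 were lower in epithelial cells (51.1% of all genes called), with a median of -6.61, or -5.61 with the gene at no UMI set to its bound. *Cyp27a1* was at 99.7 and 58.1 CPM in alveolar and 0.347 and 2.93 CPM in epithelial cells (log2 difference -6.38, SE 0.47, edgeR adjusted p = 1.95e-09). *Ch25h* had no UMI there, at least 28.8-fold lower, and *Cyp7b1* had 1 UMI, 181.6-fold lower (32.5 to 7179). In endothelial cells *Cyp27a1* (-4.75) and *Cyp7b1* (-2.33) were lower and *Ch25h* (1.99) was among 2 higher genes (33% of all genes called). Immune cells were lower in *Cyp27a1* (-1.53) and in *Cyp7b1*, with 2 UMIs and 24.4-fold lower (6.73 to 201.6), where 52.5% of all genes were called, and adventitial fibroblasts were higher in *Ch25h* (1.70) and *Cyp7b1* (0.95), where 8.71% were. Of the receptor partners and corepressors 4 of 5 were tested, without *Rxrg*. *Ncor1* was higher (0.79) and *Rxra* lower (-0.72) in epithelial cells, *Rxra* was lower in immune cells (-0.94), and edgeR and DESeq2 called 0 in endothelial and adventitial cells, beside 51.1%, 52.5%, 33% and 8.71% of all genes called by edgeR in these 4 groups. The split was not stable, with 0 to 2 higher and 0 to 2 lower in epithelial cells over the alternative fits. In immune cells 0 to 3 were higher and 0 or 1 lower over the same fits.

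Of the 81 differences of listed genes that the naming rule chose, 50 were called in all 12 alternative fits and none was reversed in any of them, while *Gramd1c* in epithelial cells could not be fitted after thinning. Named genes with no UMI in a compared group (*Apod*, *Apoc2*, *Elovl6* and *Ch25h*) passed the filter on low counts through other groups alone. Their calls in those comparisons are therefore no result of these counts. Without the library term, the adventitial calls of *Scarb1*, *Mylip*, *Stard5*, *Scarb2*, *Pltp*, *Apod*, *Ch25h* and *Cyp7b1* were lost, and so were those of *Ch25h*, *Stard4*, *Mbtps1* and *Elovl6* in endothelial, *Vldlr*, *Ncor1* and *Rxra* in epithelial, and *Insig1* and *Stard4* in immune cells. Thinning ended the calls of *Apobec1*, *Gramd1b* and *Rxra* in epithelial, *Fasn*, *Insig2* and *Rxra* in immune, and *Mbtps1* in endothelial cells. With DESeq2 every call of *Apod* was lost, as were those of *Cyp27a1* and *Fasn* in immune, *Elovl6* in endothelial, *Vldlr* in epithelial and *Scarb1*, *Stard5*, *Pltp* and *Cyp7b1* in adventitial cells. The calls of *Scarb1* in adventitial cells after thinning and of *Ncor1* in epithelial cells without scaling factors were also lost.

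Genes with the most similar pattern were found by Pearson's correlation of log2(CPM + 1) over the 10 sums, among the 3059 or 3060 genes whose mean reached 50 CPM. The sums share their libraries and fall into 5 groups, so the values are a description. The 5 genes most like *Apoe* were *Anxa1* (0.975), *Cd82* (0.965), *Celf2* (0.955), *Aprt* (0.954) and *Ctsb* (0.945). Those most like *Abca1* were *Tmem119* (0.938) and *Pdgfra* (0.927), the latter a marker used to form the stromal class, and those most like *Abcg1* were *Srgn* (0.979) and *Arpc2* (0.969). *Nr1h3* was closest to *Nnmt* (0.982) and *Dnajb4* (0.981), and *Nr1h2* to *Ubxn6* (0.980) and *Sirt2* (0.979).

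The 4 genes high in epithelial cells had neighbours of that group. *Npc2* was closest to *S100g* (0.989) and *Slc34a2* (0.982), a transporter gene of type 2 cells and part of the marker list for them. *Npc1* was closest to *Bex3* (0.951) and *Fasn* (0.935), *Srebf1* to *Scd2* (0.972) and *Prnp* (0.952), and *Srebf2* to *Chchd10* (0.960) and *Hsd17b10* (0.948). Among the 9 genes themselves, *Npc2* and *Srebf2* had a correlation of 0.886, *Npc1* and *Npc2* of 0.865, *Npc1* and *Srebf1* of 0.845, and *Apoe* and *Abca1* of 0.835. The most negative were *Nr1h2* and *Srebf2* (-0.877), *Abcg1* and *Srebf1* (-0.875) and *Nr1h2* and *Npc2* (-0.759).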

How the data were processed

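The deposited values were raw UMI counts per gene and cell, which the authors made with Cell Ranger 5.0.1 from 10x 3' libraries on build mm10, with no further normalization. The annotation release is not stated. From the 19622 cells kept in 2 libraries, UMIs were summed per group and library, at a depth of 119534 to 38784930 UMIs per sum. The 10 comparisons of 5 groups were tested with edgeR 4.0.16 (TMM factors, default filter on low counts, library term) in R 4.3.3, with Benjamini-Hochberg adjustment. Tables and figures used Python 3.11.15, numpy 2.4.6, pandas 2.3.3, scipy 1.17.1 and matplotlib 3.10.9. The code was tested on simulated counts. Of true log2 differences of 1 it recovered 55.1% in epithelial and 31.25% in endothelial over alveolar cells, and of those of 2 it recovered 91.84% and 74.49%. Groups that were not told apart may therefore still differ. Intervals (95%, Poisson for levels, Clopper-Pearson for shares and pooled ratios) reflect only counting error, and a count of 0 allows up to 3 UMIs.

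The 12 alternative fits were 7 planned ones, with RLE factors, DESeq2 1.42.0, no filter on low counts, no library term, at least 5 marker UMIs, no UMI of another class's markers, and cells thinned to 2000 UMIs, and 5 chosen after the values were seen, without scaling factors, without an endothelial or an epithelial sum, and without macrophage marker cells. Log2 ratios of CPM within each library, where both groups had a UMI, served as leave-out checks.

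The 9 genes and the lists were chosen with earlier results of these data known. Named beside the 9 genes were the 5 genes most like *Apoe* and the 2 most like each other gene, and per list and comparison up to 3 called genes with the largest absolute log2 difference, given for the comparisons with alveolar fibroblasts. Some genes of the lists are not reported here. Of the 90 differences of the 9 genes, 58 were called, those of *Abcg1* included, of which 48 kept direction and call in all 12 alternative fits and none took another sign. Calls of *Abcg1* in endothelial or immune cells against fibroblasts or epithelial cells had to come, so they are no result of these counts.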

Additional observations from a re-analysis of the deposited data

Results flagged for a closer look

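Cells that met no class rule and cells that met several were in none of the comparisons, and the 9 genes were also found there. As the mean of 2 libraries, *Apoe* was at 4005 CPM in cells of no class and 2832 CPM in cells of several classes, and *Npc2* at 563.5 and 1200 CPM. *Abca1* was at 57.25 and 44.7 CPM, and *Abcg1* at 23.35 CPM in cells of several classes. *Nr1h2* stood at 57.09 and 56.04 CPM and *Nr1h3* at 106.5 and 47.03 CPM. *Npc1* stood at 26.3 and 54.99 CPM, *Srebf1* at 20.44 and 47.31 CPM, and *Srebf2* at 48.99 and 62.64 CPM. These levels are above the limit that a count of 0 allows.

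Some of these means join libraries that were far apart. In cells of no class *Apoe* was at 6307 and 1703 CPM in libraries 1 and 2, *Npc2* at 731.4 and 395.5 CPM and *Srebf1* at 26.9 and 13.96 CPM (3 UMIs). In cells of several classes *Npc2* was at 1760 and 639.8 CPM, *Abcg1* at 5.18 and 41.5 CPM, *Srebf1* at 67.6 and 27.04 CPM and *Srebf2* at 76.8 and 48.5 CPM.

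By markers, cells of no class were mixed. They held 12737 and 32573 CPM of the platelet and red cell list (mostly *Hbb-bs*), 2535 and 1242 CPM of the stromal list (*Col1a1*, *Col3a1*, *Tcf21* and *Npnt*), and 44.9 and 2466 CPM of the smooth muscle and pericyte list. Cells that met the stromal and endothelial rules alone held *Apoe* at 3995 and 2369 CPM in libraries 1 and 2. Whether cells of several classes are doublets was not tested.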

How the results depend on the processing

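The differences of the 9 genes that turned sign under an alternative had not been called, with the exception of *Npc1* in endothelial cells. All values are log2 differences, and the cause was not tested. For adventitial over alveolar fibroblasts, *Abcg1* turned to 0.022 with RLE factors, 0.11 with DESeq2, 0.059 without the library term and 0.032 without alveolar macrophage marker cells. *Srebf1* turned to 0.0037 after thinning, and *Srebf2* to 0.025 with RLE factors, 0.027 with DESeq2, 0.0065 without the library term and 0.0084 with at least 5 marker UMIs.

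Thinning turned *Abcg1* to 0.97 in epithelial over alveolar and to 4.51 in epithelial over adventitial cells, from 1 epithelial UMI before thinning. *Nr1h2* in immune over alveolar cells turned to -0.20 without scaling factors and -0.021 without the low-count filter. In immune over adventitial cells it turned to 0.060 with RLE factors, 0.059 with DESeq2, 0.013 without cells holding another class's markers and 0.034 after thinning, and *Npc1* turned to 0.10 after thinning. *Nr1h3* turned to -0.34 in epithelial over endothelial cells without scaling factors, and in immune over endothelial cells to 0.44 without cells holding another class's markers and 0.97 after thinning. *Srebf1* in immune over endothelial cells turned to 0.055 with RLE factors, 0.056 with DESeq2, 0.079 without the library term, 0.084 without cells holding another class's markers, 1.68 after thinning and 0.074 without C1q marker cells. *Abca1* in immune over epithelial cells turned to -0.047 after thinning and -0.12 without C1q marker cells. When a library or the endothelial sum of library 1 was left out, *Npc1* in endothelial cells ranged from -1.465 to 0.0076 over alveolar and from -1.178 to 0.26 over adventitial fibroblasts.

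Without alveolar macrophage marker cells, 3 rather than 5 of the 9 genes were called in immune over endothelial cells. Over all genes, adventitial over alveolar fibroblasts had 1161 calls, 617 with DESeq2, 254 without the library term, and 1205 to 1763 without an endothelial or epithelial sum. Thinning gave 4270 rather than 6429 calls in epithelial over adventitial, 3349 rather than 5382 in epithelial over endothelial, and 4200 rather than 6400 in immune over epithelial cells. Of the 36 neighbouring pairs in the orders of levels, 15 were called, and 11 without the library term.

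Without scaling factors, the genes called higher and lower in epithelial over alveolar cells were 2092 and 6304 rather than 3248 and 3565, and in immune over alveolar cells 2701 and 4847 rather than 3220 and 3771. In epithelial over adventitial cells they were 1979 and 5839 (3043 and 3386 with factors), in epithelial over endothelial 1561 and 5164 (2736 and 2646), in immune over endothelial 1792 and 3890 (2420 and 2393), in immune over epithelial 3923 and 2640 (3103 and 3297), and in endothelial over adventitial 2492 and 2086 (1918 and 2507). The majority turned in endothelial over alveolar cells, with 2384 higher and 1988 lower without factors (1972 and 2429 with factors). Without the library term, adventitial over alveolar fibroblasts had 207 and 47 rather than 768 and 393. The median over all genes moved without factors by -0.53 in epithelial over adventitial, -0.73 in epithelial over endothelial, -0.44 in immune over endothelial, -0.24 in immune over adventitial, 0.29 in immune over epithelial and 0.19 in endothelial over adventitial cells, and by 0.13 with RLE factors and 0.14 with DESeq2 in immune over alveolar cells.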

Other observations

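The groups rest on 2 libraries whose number of mice is not given, and whether the spread between them is technical was not tested. Endothelial cells of library 1 (56 cells) and epithelial cells of library 2 (101 cells) were few. The sort selected retinoid-bearing cells, so endothelial, epithelial and immune cells are those that passed it, and whether they stand for all such cells of the lung was not tested. Counts are of transcripts, and protein, sterol content and receptor activity were not measured. Free RNA was not removed from the counts.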
